A study of Homo sapiens with 4 samples.

Results

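The response to stem cell medium was measured in MDA-MB231 cells that carried PIAS1 shRNA2, as the ratio of the array of these cells in SCM over the array of the same cells in DMEM. The members were all probe sets listed with exactly 1 gene symbol in the platform's gene table, which was 19070 of the 22277 probe sets on the array. They read 11963 genes, and 9294 of these had a signal above background on at least 1 of the 2 arrays. The remaining 2669 genes were under background in both media and have no ratio.

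MDA-MB231 is a human breast cancer line with a mesenchymal look that lacks the estrogen receptor and grows as an attached sheet in serum. The study measured RNA of these groups on Affymetrix human GeneChip arrays, as follows: control shRNA cells in DMEM, control shRNA cells in SCM, PIAS1 shRNA2 cells in DMEM and PIAS1 shRNA2 cells in SCM. There was 1 array for each of these 4 groups. Every group was kept in its medium for 30 h. DMEM stands for DMEM with 10% FBS, and SCM is a medium without serum to which EGF, basic FGF and insulin are added and in which tumor-initiating cells are grown as mammospheres. The hairpins were driven by a U6 promoter in a lentiviral vector, and all 4 groups carried this vector and its puromycin resistance. Each hairpin is represented by 1 stable line, so PIAS1 loss and any other difference between the lines cannot be told apart. The array labels name PIAS1 shRNA, and the design text gives the hairpin as shRNA2. With 1 array per condition there is no replicate error, no ratio has a test, and the number of arrays limits the precision.

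PIAS1 is a SUMO ligase that holds back transcription at many promoters, among them promoters bound by STAT proteins and by NF-kappaB, the factor family that drives inflammatory cytokines and chemokines. Serum carries growth factors, lysophospholipids and lipoproteins, and SCM replaces it with a few purified factors. Genes of DNA synthesis are driven by E2F factors as cells pass from G1 into S phase, and genes of mitosis by B-MYB and FOXM1 with the MuvB complex in G2, so the RNA of both groups follows how many cells are cycling.

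The values were MAS5 signals, which are intensities on a linear scale. The mean signal without the lowest and highest 2% of probe sets was 2501 on every array, and the median signal lay between 569 and 605. The 9 spiked-in bacterial control probe sets had SCM over DMEM ratios of 0.979 to 1.09 in PIAS1 shRNA2 cells. As a sign of RNA integrity, the 3' over 5' ratio was 0.946 in DMEM and 1.11 in SCM for ACTB, and 0.858 and 0.879 for GAPDH. Signals under 182 were raised to this floor, which was set from 52 genes of other tissues. A fold is written as at least a value where the dimmer signal was under the floor.

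The line was checked against its markers. All 6 measured mesenchymal markers were above the floor on both PIAS1 shRNA2 arrays, and VIM, the gene of the intermediate filament vimentin, read 74601 in DMEM and 73617 in SCM. The cadherin gene CDH1 and the progesterone receptor gene PGR, which this line is known to lack, were under the floor in both media. The leukocyte marker PTPRC and the endothelial markers VWF and CDH5 were under the floor too. Other members of the lists of CDH1 and PGR were not. Above the floor on at least 1 array were 3 of 5 epithelial junction markers and 5 of 7 luminal markers. Among them EPCAM read 486 in DMEM and 831 in SCM, CLDN4 1451 and 3171, and GATA3 4765 and 1718. The estrogen receptor gene ESR1 read 206 and 357 on its brightest probe set. PIAS1 itself was lower in the PIAS1 shRNA2 line. Its brightest probe set read 512 in DMEM and 671 in SCM with PIAS1 shRNA2, against 1383 and 1814 with control shRNA. On this probe set PIAS1 was 1.31-fold higher in SCM in each line. A further probe set read 363 in DMEM and 500 in SCM with PIAS1 shRNA2 and 1527 and 1588 with control shRNA. The last one read 158 and 548 with PIAS1 shRNA2 and 684 and 704 with control shRNA, so on these 2 the control line was close to level between the media.

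In PIAS1 shRNA2 cells, 1015 genes had a signal at least 2-fold higher in SCM, and for 967 it was at least 2-fold lower. These are 10.9% and 10.4% of the 9294 genes above the floor on at least 1 of the 2 arrays, and they are the background for the counts of each gene group below. At least 4-fold higher were 217 genes and at least 4-fold lower 196, while at least 16-fold higher were 12 genes and lower 4. Among the gene lists with at least 10 genes above the floor, those of the hypoxia response and of NF-kappaB had the highest medians, 1.90 and 1.89 on the log2 scale, and those of DNA replication and mitosis the lowest, -2.36 and -2.27. The median log2 ratio of all 9294 genes was -0.01, with quartiles at -0.49 and 0.50. Less RNA per cell and fewer cells of a type cannot be told apart in these bulk samples. Signals under the floor made 161 of the higher and 87 of the lower ratios bounds. Among called genes with several probe sets above the floor, every probe set ran the same way for 329 of 357 higher and 288 of 316 lower genes.

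**Figure D1:**
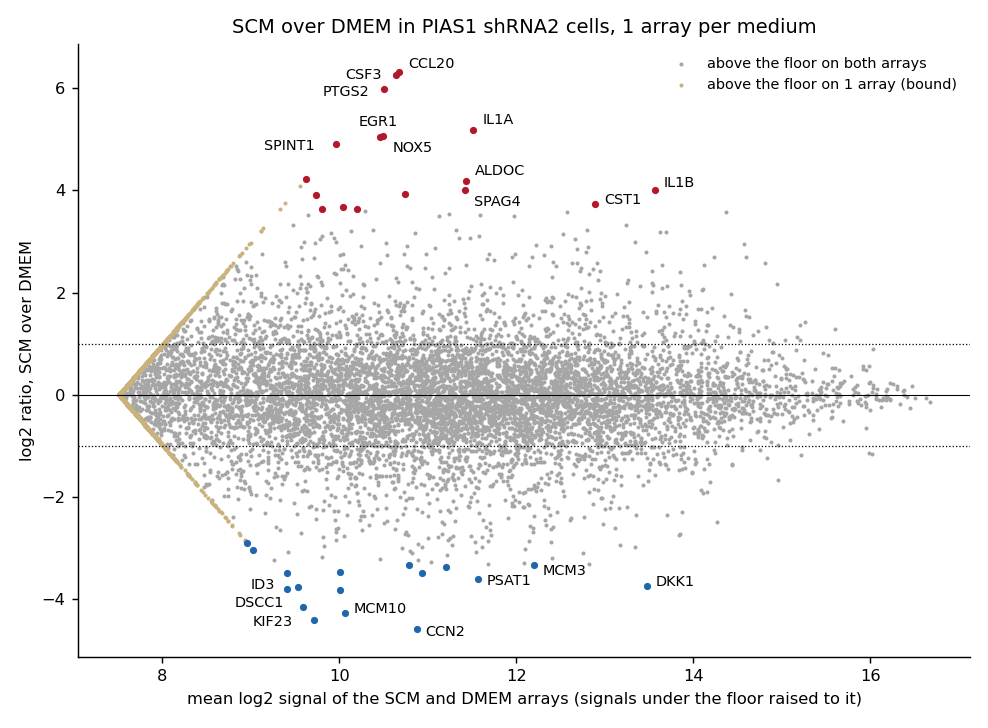
Log2 ratio of SCM over DMEM in PIAS1 shRNA2 cells against the mean log2 signal of both arrays, 1 point per gene for 9294 genes, with signals under the floor of 182 raised to it. Dotted lines mark a 2-fold ratio, and red and blue points are the named genes with the highest and lowest ratios, from CCL20 at 6.32 (a bound) to CCN2 at -4.58.

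Among genes above the floor on both PIAS1 shRNA2 arrays, the 12 highest ratios included the cytokines IL1A and IL1B and the growth-factor responsive transcription factor gene EGR1. IL1A, which encodes the inflammatory cytokine interleukin-1 alpha, read 482 in DMEM and 17667 in SCM in PIAS1 shRNA2 cells, a 36.6-fold higher signal. In control shRNA cells IL1A read 293 and 12038. A dimmer probe set of IL1A, near the floor, read 234 and 199 in PIAS1 shRNA2 cells and did not show this. IL1B, the gene of interleukin-1 beta, read 3021 and 48491 in PIAS1 shRNA2 cells and 1633 and 27266 in control shRNA cells. IL1B was thus 16-fold higher in SCM with PIAS1 shRNA2, and its SCM signal there was the highest of the 4 arrays.

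EGR1 read 246 in DMEM and 8065 in SCM with PIAS1 shRNA2, and 260 and 11912 with control shRNA. Its 32.8-fold ratio in PIAS1 shRNA2 cells was below the 45.8-fold ratio of the control line. NOX5, which encodes a calcium-activated NADPH oxidase, read 249 and 8367 with PIAS1 shRNA2 and 398 and 14462 with control shRNA. ALDOC, an aldolase of glycolysis, read 645 and 11773 with PIAS1 shRNA2 and 409 and 13142 with control shRNA. For each of these 3 genes the SCM signals of both lines lay far above both DMEM signals. SPAG4, which encodes a nuclear envelope protein, read 680 and 10940 with PIAS1 shRNA2 and 742 and 11101 with control shRNA, so that its ratios in the lines, 16.1-fold and 15.0-fold, were close.

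EBI3, PECAM1 and SLC7A7 had higher ratios in PIAS1 shRNA2 than in control shRNA cells, for PECAM1 on its brightest probe set. EBI3, the beta chain of interleukin-27 and interleukin-35, read 438 in DMEM and 6692 in SCM with PIAS1 shRNA2, but 710 and 2677 with control shRNA. PECAM1, an adhesion receptor of endothelial cells and platelets, read 219 and 3297 with PIAS1 shRNA2 and 339 and 2188 with control shRNA. SLC7A7, a subunit gene of a cationic amino acid transporter, read 295 and 3748 with PIAS1 shRNA2 and 355 and 1927 with control shRNA. In PIAS1 shRNA2 cells these ratios were 15.3-fold, 15.0-fold and 12.7-fold, and in control shRNA cells 3.77-fold, 6.45-fold and 5.43-fold. All 3 probe sets of PECAM1 were higher in SCM, but the dimmer ones did not share the gap between the lines. One had a log2 ratio of 2.33 with PIAS1 shRNA2 and of 2.74, a bound, with control shRNA. The other had 2.66 and 2.51, both bounds. The remaining genes of this group were the cystatin gene CST1, the lipoprotein lipase inhibitor gene ANGPTL4 and the trefoil peptide gene TFF2. CST1 read 2073 and 27623 with PIAS1 shRNA2 and 424 and 6890 with control shRNA, which places its DMEM signal higher in the PIAS1 shRNA2 line. ANGPTL4 read 332 and 4134 with PIAS1 shRNA2 against 91.1 and 4038 with control shRNA. TFF2 read 252 and 3145 with PIAS1 shRNA2 against 281 and 2401 with control shRNA, and its ratio was likewise higher with PIAS1 shRNA2, 12.5-fold against 8.55-fold.

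PECAM1 is an endothelial marker, so the marker lists of other cell types are given beside it. Of the 8 measured fibroblast and endothelial markers, 4 were above the floor in PIAS1 shRNA2 cells, and the summed signal of the list was 1676 in DMEM and 5610 in SCM. PECAM1 gave 3297 of the latter sum, and its part in other results was not tested. The defining endothelial markers VWF and CDH5 were under the floor on both arrays, as were COL3A1 and LUM. Of 9 measured blood cell markers, 6 were above the floor, with a summed signal of 1820 in DMEM and 3963 in SCM. Of these 6 blood cell markers, 3 were higher in SCM and 3 lower. Among the higher, CSF1R, a macrophage receptor, read 414 and 1898, and CD14, a monocyte receptor, 355 and 961. The lower ones were HBB at 430 and 216, CD3D at 198 and 40.6, the latter under the floor, and CD79A at 233 and 225. The leukocyte marker PTPRC was under the floor. With control shRNA the same sums were 2100 and 5005, and 2278 and 4825.

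The largest bounds were for genes with a signal under the floor in DMEM. CCL20, a chemokine that attracts cells with the receptor CCR6, read 33.1 in DMEM and 14579 in SCM with PIAS1 shRNA2, at least 80.0-fold higher. CSF3, the gene of the neutrophil growth factor G-CSF, read 65.8 and 13873, at least 76.1-fold higher. PTGS2, the inducible prostaglandin synthase gene, read 21.6 and 11565, at least 63.5-fold higher. These genes were also higher in SCM in control shRNA cells, where CCL20 read 31.9 and 2864, CSF3 126 and 4421, and PTGS2 31.7 and 2496. SPINT1, an inhibitor of membrane serine proteases, read 26.8 and 5445 with PIAS1 shRNA2 and 51.3 and 3323 with control shRNA. TMPRSS3, a membrane serine protease gene, read 83.9 and 3426 with PIAS1 shRNA2 and 116 and 1159 with control shRNA. All 5 genes had their highest signal on the array of PIAS1 shRNA2 cells in SCM.

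**Figure D2:**
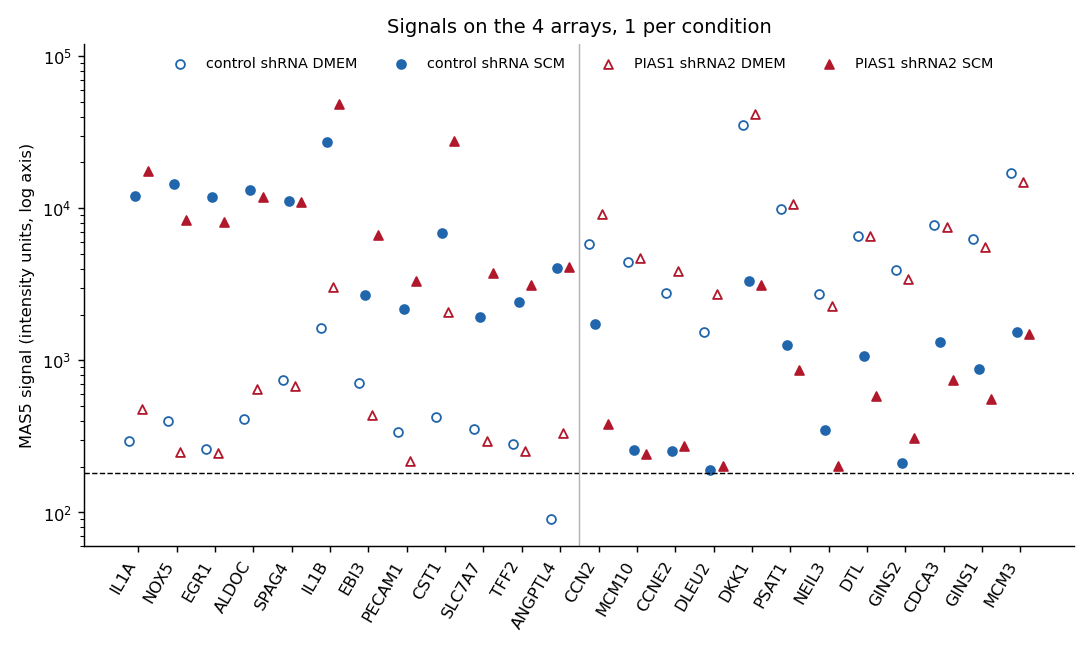
MAS5 signal (intensity units, log axis) on the 4 arrays for the 12 genes with the highest and, right of the grey line, the 12 with the lowest ratio of SCM over DMEM in PIAS1 shRNA2 cells. Control shRNA is drawn as circles and PIAS1 shRNA2 as triangles, with open symbols for DMEM and filled ones for SCM, each 1 array, and the dashed line is the floor of 182; filled symbols lie above the open ones on the left and below them on the right in both lines.

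The lowest ratios among genes above the floor on both arrays were led by CCN2, a matricellular protein gene induced by YAP and TGF-beta. CCN2 read 9172 in DMEM and 383 in SCM with PIAS1 shRNA2, 24-fold lower, but 5841 and 1725 with control shRNA, 3.39-fold lower. Genes of DNA replication followed. MCM10, which helps to switch on the replicative helicase, read 4689 and 244 with PIAS1 shRNA2 and 4442 and 256 with control shRNA. CCNE2, the gene of cyclin E2, read 3845 and 274 with PIAS1 shRNA2 and 2760 and 252 with control shRNA. The ratios of MCM10 were 19.2-fold and 17.3-fold lower in the 2 lines and those of CCNE2 14.0-fold and 11.0-fold lower.

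DLEU2, a long noncoding RNA gene that hosts microRNAs, read 2714 in DMEM and 201 in SCM with PIAS1 shRNA2, and 1529 and 190 with control shRNA. DKK1, a secreted inhibitor of WNT signaling, read 41564 and 3104 with PIAS1 shRNA2 and 35378 and 3321 with control shRNA. PSAT1, an enzyme of serine synthesis, read 10580 and 865 with PIAS1 shRNA2 and 9890 and 1261 with control shRNA. In PIAS1 shRNA2 cells they were 13.5-fold, 13.4-fold and 12.2-fold lower in SCM. NEIL3, a DNA glycosylase of S phase, was 11.2-fold lower, with 2271 and 203. DTL, which targets the licensing factor CDT1 for destruction, was also 11.2-fold lower, with 6561 and 586. CDCA3, a factor that promotes mitotic entry, was 10.2-fold lower, with 7556 and 737. The control line had 7.83-fold, 6.20-fold and 5.87-fold lower signals for these 3 genes.

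The lowest bounds were those of KIF23, DSCC1, ID3, FLG and CCDC85C, each under the floor in SCM in PIAS1 shRNA2 cells. KIF23, a kinesin of the central spindle in cytokinesis, read 3887 in DMEM and 170 in SCM, at least 21.3-fold lower, whereas in control shRNA cells it read 3693 and 940. DSCC1, a gene of sister chromatid cohesion, read 3262 and 77.1 with PIAS1 shRNA2 and 2717 and 294 with control shRNA. ID3, an inhibitor of basic helix-loop-helix factors that BMP signaling induces, read 2514 and 67.5 with PIAS1 shRNA2 and 3109 and 360 with control shRNA. The filaggrin gene FLG read 1496 and 106 with PIAS1 shRNA2 and 1723 and 178 with control shRNA. CCDC85C read 1351 and 176 with PIAS1 shRNA2 and 1319 and 730 with control shRNA.

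Genes of DNA replication were lower in SCM as a group. Of 38 listed replication genes above the floor on at least 1 PIAS1 shRNA2 array, all had a log2 ratio under 0, 34 were at least 2-fold lower (89.5%, against 10.4% of all genes above the floor) and none was 2-fold higher. Their log2 ratios ran from -4.26 to -0.69 with a median of -2.36, a 5.14-fold lower signal, and the median in control shRNA cells was -2.05. Besides MCM10, the largest ratios were those of the helicase and GINS genes and of RRM2. GINS2 read 3414 in DMEM and 308 in SCM with PIAS1 shRNA2 and 3947 and 210 with control shRNA, so that here the control line had the lower SCM signal. GINS1 read 5596 and 555 with PIAS1 shRNA2 and 6277 and 883 with control shRNA. The MCM helicase subunit gene MCM3 read 14829 and 1490 with PIAS1 shRNA2 and 17044 and 1529 with control shRNA. MCM2, another subunit of this helicase, read 13596 and 1390 with PIAS1 shRNA2 and 16054 and 2009 with control shRNA. These helicase genes were 9.78-fold to 10.1-fold lower in PIAS1 shRNA2 cells, GINS2 11.1-fold. RRM2, the small subunit of ribonucleotide reductase, read 22752 and 2301 with PIAS1 shRNA2, 9.89-fold lower, and 21694 and 5411 with control shRNA, 4.01-fold lower. The SCM array of PIAS1 shRNA2 cells held the lowest of the 4 signals for 29 of the 38 genes and that of control shRNA cells for 9. Over all 9294 genes these arrays held the lowest signal for 2089 and 2509 genes.

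Genes of homologous recombination and the Fanconi pathway, which repair breaks and crosslinks in S phase, were lower with them. All 14 genes above the floor had a log2 ratio under 0, 12 were at least 2-fold lower (85.7%), and the median was -2.22 with PIAS1 shRNA2 and -1.91 with control shRNA. RAD54L, a DNA-dependent ATPase of recombination, read 1302 in DMEM and 76.4 in SCM, at least 7.15-fold lower. BRIP1, a helicase that binds BRCA1, read 1012 and 84.3. XRCC2, a gene of homologous recombination, read 1018 and 194 with PIAS1 shRNA2, 5.25-fold lower, and 808 and 542 with control shRNA, 1.49-fold lower. The related XRCC3 read 971 and 35.7 with PIAS1 shRNA2 and 1012 and 131 with control shRNA.

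Mitotic genes were lower in SCM in every case, and more so with PIAS1 shRNA2. All 46 listed genes had a log2 ratio under 0, 43 were at least 2-fold lower (93.5%, against 10.4%), and the range was -4.41 to -0.71 around a median of -2.27, a 4.81-fold lower signal. With control shRNA the median was -1.58, a 3.0-fold lower signal. MKI67, the gene of the proliferation marker Ki-67, read 10346 in DMEM and 1041 in SCM with PIAS1 shRNA2, 9.94-fold lower, and 8054 and 2203 with control shRNA, 3.65-fold lower. All 4 probe sets of MKI67 were lower in SCM, with log2 ratios of -3.31 to -3.02 with PIAS1 shRNA2 and -2.01 to -1.66 with control shRNA. CDC20, an activator of the anaphase-promoting complex, read 16299 and 1791 with PIAS1 shRNA2 and 14801 and 2854 with control shRNA. PLK1, a kinase of spindle assembly, read 7014 and 802 with PIAS1 shRNA2 and 6551 and 2158 with control shRNA. In DMEM the signals of these genes were close in both lines, and in SCM they were lower with PIAS1 shRNA2. CCNA2, the gene of cyclin A2, read 20186 and 2374 with PIAS1 shRNA2 and 22461 and 6241 with control shRNA. CDCA8, a subunit gene of the chromosomal passenger complex, read 8652 and 1030 with PIAS1 shRNA2 and 9850 and 1998 with control shRNA.

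The array of PIAS1 shRNA2 cells in SCM held the lowest of the 4 signals for 45 of these 46 mitotic genes. Over the 45 genes above the floor on all 4 arrays, the median log2 of the PIAS1 shRNA2 signal over that of control shRNA was -0.07 in DMEM and -0.84 in SCM. Of these 45 genes, 43 had the more negative medium ratio with PIAS1 shRNA2, and for 10 the gap was at least 2-fold. For the replication genes the same median was -0.06 in DMEM and -0.31 in SCM, and 26 of 37 had the more negative medium ratio with PIAS1 shRNA2, 2 of them by at least 2-fold.

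The promoters of the mitotic and replication genes with the lowest ratios are shown because the members were lower together. They are the genes with the lowest ratios whose window holds the sites these groups are known for. The mitotic set is MKI67, CDC20 and PLK1, with the cell cycle homology region (CHR, TTTGAA or TTTAAA), which the MuvB complex binds, and the CCAAT box of NF-Y. The replication set is GINS1, MCM3 and MCM2, with the E2F element (TTTCGCGC or TTTGGCGC). Each window runs from 150 bases before to 20 bases from the annotated start, on the strand of the gene and from RefSeq on GRCh38.p14, with every match of the set's motifs on either strand in capitals. In MKI67 a CHR and a CCAAT box on the other strand overlap, and in MCM2 E2F matches of both strands overlap.
MKI67, chr10:128126404-128126573, minus strand: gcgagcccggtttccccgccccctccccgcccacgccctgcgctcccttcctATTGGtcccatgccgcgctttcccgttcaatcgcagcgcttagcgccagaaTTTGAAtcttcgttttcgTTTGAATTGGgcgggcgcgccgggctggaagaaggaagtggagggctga
CDC20, chr1:43358831-43359000, plus strand: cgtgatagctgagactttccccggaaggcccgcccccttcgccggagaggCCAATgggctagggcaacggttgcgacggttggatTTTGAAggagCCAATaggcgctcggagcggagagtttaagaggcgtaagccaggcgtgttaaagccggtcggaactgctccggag
PLK1, chr16:23678739-23678908, plus strand: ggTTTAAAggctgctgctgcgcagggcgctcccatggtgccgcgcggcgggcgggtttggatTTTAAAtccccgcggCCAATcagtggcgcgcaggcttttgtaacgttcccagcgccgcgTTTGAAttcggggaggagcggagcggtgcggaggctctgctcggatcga
GINS1, chr20:25407523-25407692, plus strand: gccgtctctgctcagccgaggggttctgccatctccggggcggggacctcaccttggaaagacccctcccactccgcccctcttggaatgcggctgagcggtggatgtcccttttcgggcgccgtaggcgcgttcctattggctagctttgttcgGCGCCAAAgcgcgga
MCM3, chr6:52284723-52284892, minus strand: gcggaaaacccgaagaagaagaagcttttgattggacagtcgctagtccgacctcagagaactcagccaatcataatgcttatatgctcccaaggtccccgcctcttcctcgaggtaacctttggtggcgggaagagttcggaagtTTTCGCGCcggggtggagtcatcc
MCM2, chr3:127598261-127598430, plus strand: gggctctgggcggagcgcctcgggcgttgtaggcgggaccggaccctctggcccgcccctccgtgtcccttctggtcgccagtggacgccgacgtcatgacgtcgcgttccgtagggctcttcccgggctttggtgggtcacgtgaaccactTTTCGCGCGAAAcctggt

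Across whole promoters of 300 bases, from 250 before to 50 after the start, a CHR stood in 33 of 39 mitotic promoters with a RefSeq sequence (84.6%), a CCAAT box in 79.5% and both in 69.2%. Of all 27305 promoters, 24.3% held a CHR, 35.7% a CCAAT box and 9.49% both. The E2F element stood in 10 of 35 replication promoters (28.6%), against 1.18% of all promoters. Among the genes at least 4-fold lower in SCM with PIAS1 shRNA2 that matched a promoter, 12.1% held the E2F element, 36.4% a CHR and 55.2% a CCAAT box. The genes above the floor as a whole had 1.93%, 16.3% and 37.5%. Among genes at least 4-fold higher, 0 of 163 promoters held the E2F element and 18 (11.0%) held the AP-1 site TGACTCA, against 3.32% of genes above the floor and 4.92% of all promoters. Matches of the remaining motifs searched, the sterol element TCACNCCAC, the TEAD site GGAATG, the amino acid response element TGATGCAAT and the cyclic AMP element TGACGTCA, stood in 1.15%, 14.0%, 0.264% and 1.98% of all promoters. In the same order, genes above the floor had 1.06%, 10.9%, 0.144% and 3.30%. Genes at least 4-fold lower had 0.606%, 13.9%, 0% and 6.67%, and genes at least 4-fold higher 1.23%, 14.7%, 0% and 1.23%. In the lists described below, the TEAD site stood in 6 of 18 promoters of YAP and SRF targets (33.3%). The amino acid response element stood in 0 of 26 of ATF4 targets and the sterol element in 1 of 16 of cholesterol genes. The highest ratios with an AP-1 match near the start were those of IL1A and EBI3, shown with the site in capitals.
IL1A, chr2:112784474-112784643, minus strand: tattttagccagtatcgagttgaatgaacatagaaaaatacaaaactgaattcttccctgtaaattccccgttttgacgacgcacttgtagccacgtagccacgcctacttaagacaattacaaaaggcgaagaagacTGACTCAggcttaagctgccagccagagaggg
EBI3, chr19:4229373-4229542, plus strand: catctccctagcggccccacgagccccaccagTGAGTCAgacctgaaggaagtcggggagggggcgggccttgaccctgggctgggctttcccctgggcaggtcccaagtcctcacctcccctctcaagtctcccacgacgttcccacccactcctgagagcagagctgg

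The cell cycle regulators of G1 went in both directions in PIAS1 shRNA2 cells. Of 18 genes above the floor, which were cyclins, CDKs, CDK inhibitors, E2F factors, the pocket protein genes RBL1 and RBL2, and CDC25A, 9 were at least 2-fold lower in SCM (50%) and 2 at least 2-fold higher (11.1%), with a median log2 ratio of -1.02. Besides CCNE2, the lower genes were led by CDC25A, the phosphatase that activates CDK2, with 1985 in DMEM and 235 in SCM. CCND1, the gene of cyclin D1, was 6.11-fold lower, with 11524 and 1887, and in control shRNA cells it was 6.29-fold lower, with 11550 and 1837. E2F1 was 5.1-fold lower, with 2989 and 586, and CCNE1, the gene of cyclin E1, was 3.0-fold lower, with 2557 and 852. The inhibitor gene CDKN1A, which encodes p21, stood against these. It read 2876 in DMEM and 16072 in SCM with PIAS1 shRNA2 and 2291 and 16066 with control shRNA, 5.59-fold and 7.01-fold higher. Of 15 p53 targets above the floor, CDKN1A among them, 4 were at least 2-fold higher (26.7%), none was 2-fold lower, and the median was 0.26. GDF15, a stress-induced cytokine, was 6.46-fold higher with PIAS1 shRNA2, at 1550 and 10015, and 2.59-fold higher with control shRNA, at 2311 and 5982.

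Ribosome biogenesis factors, which cut, modify and assemble pre-ribosomal RNA, were lower in SCM, while ribosomal protein genes were level. Of 22 biogenesis genes above the floor, 17 were at least 2-fold lower (77.3%, against 10.4%) and none was 2-fold higher, with a median of -1.40 in PIAS1 shRNA2 cells and -1.16 in control shRNA cells. PA2G4 read 13314 in DMEM and 2222 in SCM with PIAS1 shRNA2 and 11339 and 2337 with control shRNA, 5.99-fold and 4.85-fold lower. NOP16 read 9347 and 2138, NIP7 2119 and 541 and TSR1 11352 and 3078 with PIAS1 shRNA2. All probe sets of PA2G4, NOP16 and TSR1 ran the same way with PIAS1 shRNA2, but dimmer ones of NOP16 and TSR1 moved far less. Their log2 ratios were -0.18 and -0.51 for NOP16 and -0.29 for TSR1. With control shRNA these probe sets were slightly higher in SCM, at 0.31, 0.13 and 0.33. None of 37 cytosolic ribosomal protein genes was 2-fold different, their log2 ratios ran from -0.35 to 0.27, and the median was -0.05. The 39 subunit genes of the mitochondrial respiratory chain had none at 2-fold, a median of -0.05 and a range of -0.73 to 0.83.

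Protein quality control divided by compartment. Of 17 genes of the unfolded protein response, which serve folding in the endoplasmic reticulum, 9 were at least 2-fold higher (52.9%, against 10.9%), none was lower, and the median was 1.01. DNAJB9, a chaperone that restrains IRE1, read 5268 in DMEM and 18457 in SCM with PIAS1 shRNA2 and 5556 and 15548 with control shRNA. MANF, a secreted protein of the stressed reticulum, read 7424 and 22809 with PIAS1 shRNA2 and 7249 and 21060 with control shRNA. HSPA5, the main chaperone of this compartment, read 25966 and 54533 with PIAS1 shRNA2, 2.1-fold higher. The lines were close in each of these genes. Cytosolic heat shock genes had log2 ratios from -1.14 to 0.18, with 2 of 9 at least 2-fold lower (22.2%) and a median of -0.65. HSPH1 was 2.21-fold lower, at 16101 and 7300, and DNAJB1 2.19-fold lower, at 13873 and 6333. Of 26 proteasome subunit genes, 25 had a log2 ratio under 0 but only 3 were at least 2-fold lower, close to the background of 10.4%, and the median was -0.38. PSMC3, an ATPase of the regulatory particle, was 2.54-fold lower, at 20934 and 8234. Of 26 lysosome and autophagy genes, 4 were at least 2-fold higher (15.4%, against 10.9%), led by the autophagy genes WIPI1 at 2.84-fold and GABARAPL1 at 2.78-fold, and the median was 0.42.

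**Figure D3:**
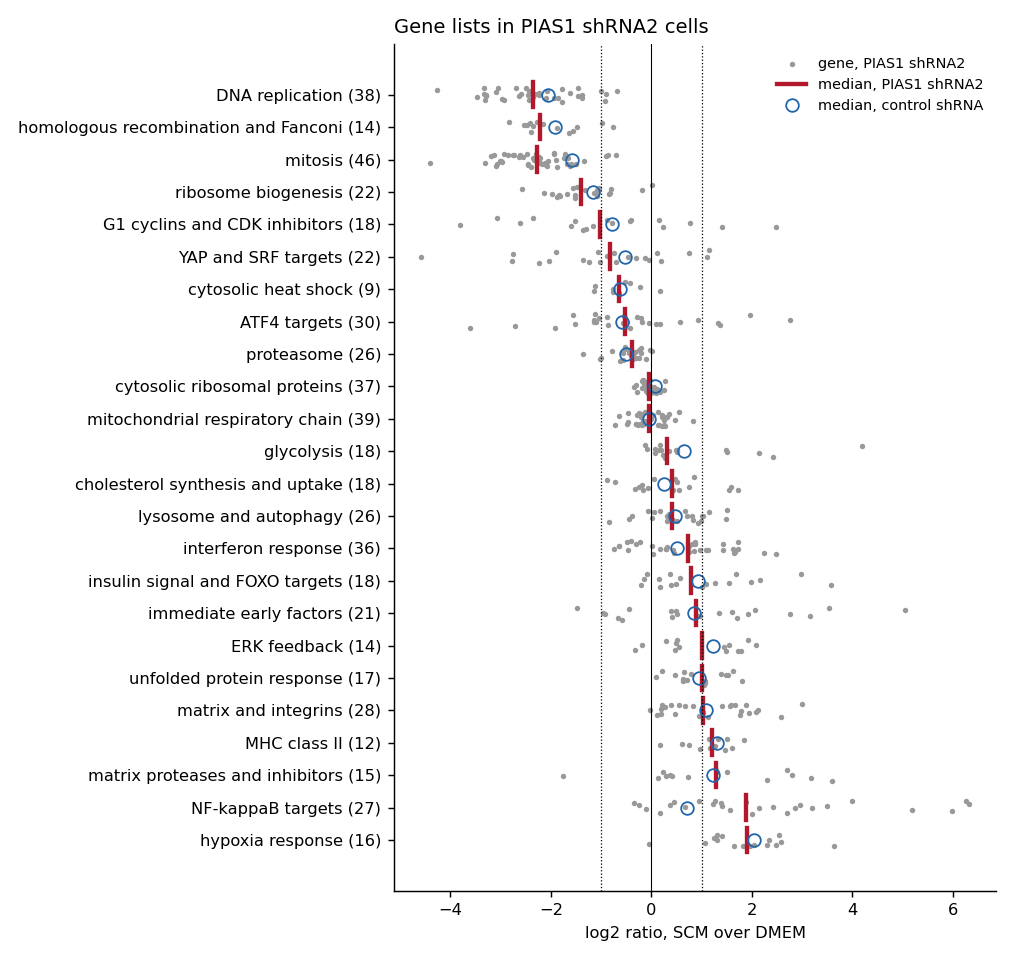
Log2 ratio of SCM over DMEM of the genes of 24 lists in PIAS1 shRNA2 cells, 1 grey point per gene above the floor on at least 1 of the 2 arrays (number in parentheses), spread vertically within each row for legibility only. Red bars are the list medians in PIAS1 shRNA2 cells and open blue circles those in control shRNA cells; the medians run from -2.36 for DNA replication to 1.90 for the hypoxia response, and the wide gap between bar and circle is that of the NF-kappaB targets at 1.89 and 0.70.

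Targets of ATF4, the factor of the amino acid response, were lower more often than higher. Of 30 genes, 10 were at least 2-fold lower (33.3%) and 4 at least 2-fold higher (13.3%), with a median of -0.53. The named genes of serine and asparagine synthesis and of amino acid transport were as follows. Besides PSAT1, SLC7A5, a transporter of large neutral amino acids, read 37706 in DMEM and 5734 in SCM with PIAS1 shRNA2, 6.58-fold lower. Its partner chain SLC3A2 read 8364 and 2212, 3.78-fold lower. The asparagine synthetase gene ASNS read 4567 and 1562, 2.92-fold lower. In control shRNA cells these genes were 4.55-fold, 2.54-fold and 3.18-fold lower. PSPH, which makes the last step of serine synthesis, stood against PSAT1 on its brighter probe set, with 4558 and 17845, 3.91-fold higher. Its other probe set did not show this, with 1256 and 1316 with PIAS1 shRNA2 and 1433 and 810 with control shRNA. VLDLR, a lipoprotein receptor, read 655 and 4431, 6.77-fold higher.

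Targets of YAP and SRF, factors that respond to serum lysophospholipids and to the actin cytoskeleton, were lower in SCM. Of 22 genes, 10 were at least 2-fold lower (45.5%) and 2 at least 2-fold higher (9.09%), with a median of -0.82 in PIAS1 shRNA2 cells and -0.52 in control shRNA cells. CCN1, like CCN2 a matricellular protein gene, read 38058 in DMEM and 5647 in SCM with PIAS1 shRNA2, 6.74-fold lower, against 35844 and 11681 with control shRNA, 3.07-fold lower. THBS1, the gene of thrombospondin, read 35299 and 9431 with PIAS1 shRNA2 and 22073 and 10277 with control shRNA. AMOTL2, a binding partner of YAP, was much alike in the lines, at 7509 and 1104 with PIAS1 shRNA2 and 7836 and 1256 with control shRNA. TGFB2 read 4478 and 1086 with PIAS1 shRNA2 and 2639 and 641 with control shRNA, 4.12-fold lower in each. Feedback genes of TGF-beta and BMP did not move together, with 4 of 18 at least 2-fold higher (22.2%) and 1, ID3, lower (5.56%). TGFB1 read 3229 and 12379 with PIAS1 shRNA2, 3.83-fold higher.

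Genes of growth factor signaling were higher. Of 14 feedback genes of ERK signaling, 7 were at least 2-fold higher (50%, against 10.9%), none was 2-fold lower, and the median was 1.0 with PIAS1 shRNA2 and 1.22 with control shRNA. SPRY4, an inhibitor of receptor tyrosine kinase signals, read 3280 in DMEM and 13980 in SCM with PIAS1 shRNA2, 4.26-fold higher. ETV1, an ETS factor gene under ERK control, was 3.78-fold higher at 2324 and 8781, on all 5 of its probe sets. DUSP6, an ERK phosphatase, read 14478 and 42050 with PIAS1 shRNA2, 2.9-fold higher, and 8369 and 38088 with control shRNA, 4.55-fold higher. The DMEM signal of DUSP6 was thus higher with PIAS1 shRNA2, and the SCM signals were close. Of 21 immediate early factors, 9 were at least 2-fold higher (42.9%) and 1 lower (4.76%), with a median of 0.89. Besides EGR1, ZFP36, which encodes an RNA-decay factor, read 710 and 8191 with PIAS1 shRNA2, 11.5-fold higher. NR4A2, an orphan nuclear receptor gene, read 320 and 2854, 8.93-fold higher, and JUNB, an AP-1 subunit gene, 1270 and 8618, 6.78-fold higher. FOS read 14.3 and 759, at least 4.16-fold higher. Of 10 genes of the EGF receptor family and its ligands, EREG, a ligand, was 4.31-fold higher at 1598 and 6892, ERBB3 was 2.99-fold higher at 289 and 862, and the ligand NRG1 was 2.39-fold lower at 6391 and 2678.

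FOXO targets, which insulin signaling holds down, were read with genes of insulin signaling itself. Of 18 genes, 9 were at least 2-fold higher (50%, against 10.9%), none was 2-fold lower, and the median was 0.78. IGFBP3, which binds insulin-like growth factors, read 6156 in DMEM and 73126 in SCM with PIAS1 shRNA2 and 6628 and 70746 with control shRNA, 11.9-fold and 10.7-fold higher. TXNIP, an inhibitor of glucose uptake, read 14799 and 66666 with PIAS1 shRNA2, 4.5-fold higher. PDK4, a kinase that shuts off pyruvate dehydrogenase, read 119 and 1442, at least 7.92-fold higher. The cyclin G2 gene CCNG2, a FOXO target, read 3083 and 12131, 3.94-fold higher.

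Hypoxia-response genes were higher in almost every case. Of 16 genes, 15 were at least 2-fold higher (93.8%, against 10.9%) and EGLN1 was level, with a median of 1.90 in PIAS1 shRNA2 cells and 2.05 in control shRNA cells. NDRG1, a stress-response gene, read 11747 in DMEM and 69953 in SCM with PIAS1 shRNA2, 5.96-fold higher, and 8315 and 69073 with control shRNA, 8.31-fold higher. The vasodilator peptide gene ADM read 7367 and 42735 with PIAS1 shRNA2 and 4070 and 46344 with control shRNA. MXI1, an antagonist of MYC, read 3167 and 17535 with PIAS1 shRNA2 and 3733 and 20616 with control shRNA. The SCM signals of NDRG1, ADM and MXI1 were close in the lines. EGLN3, a prolyl hydroxylase that marks HIF for destruction, was 4.92-fold higher at 391 and 1922. PFKFB4, a regulator of glycolysis, was 5.05-fold higher at 221 and 1114. Glycolysis genes as a group were less affected, with 5 of 18 at least 2-fold higher (27.8%), none 2-fold lower and a median of 0.31. The 5 were ALDOC, the neuronal enolase gene ENO2 at 4.4-fold, the glucose transporter gene SLC2A3 at 5.37-fold, PFKL at 2.84-fold and the hexokinase gene HK2 at 2.78-fold. HK2 read 1876 and 5222 with PIAS1 shRNA2 and 911 and 6973 with control shRNA, 7.65-fold higher there.

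Genes of lipid synthesis differed little between the media as groups. In PIAS1 shRNA2 cells 3 of 18 cholesterol genes (16.7%) and 2 of 12 fatty acid genes (16.7%) were at least 2-fold higher, against 10.9% of all genes, none was 2-fold lower, and the medians were 0.42 and 0.34. The control shRNA medians were 0.26 and -0.05. SCD, the stearoyl-CoA desaturase gene, read 8554 in DMEM and 35695 in SCM with PIAS1 shRNA2, 4.17-fold higher, and 11060 and 29378 with control shRNA, 2.66-fold higher. SREBF1, the gene of the lipid regulator SREBP-1, read 1686 and 5790 with PIAS1 shRNA2 and 3370 and 4564 with control shRNA. INSIG1, a gene of sterol regulation, read 8928 and 26708 with PIAS1 shRNA2 and 7578 and 18534 with control shRNA. MSMO1, an enzyme of cholesterol synthesis, read 5714 and 16678 with PIAS1 shRNA2 and 6405 and 11402 with control shRNA. Each of these 4 genes had its highest signal on the array of PIAS1 shRNA2 cells in SCM. The medium ratio was larger with PIAS1 shRNA2 for 15 of 18 cholesterol and 11 of 12 fatty acid genes, mostly by small amounts with medians of 0.23 and 0.36. The cholesterol exporter gene ABCG1, an LXR target, was 7.94-fold higher at 354 and 2815 with PIAS1 shRNA2 and 7.15-fold higher at 384 and 2746 with control shRNA.

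NF-kappaB targets were higher in SCM in PIAS1 shRNA2 cells, with a wide spread. Of 27 targets above the floor, 19 were at least 2-fold higher (70.4%, against 10.9%), none was 2-fold lower, and the median was 1.89, a 3.70-fold higher signal. Some of these targets, among them CCL20, CSF3 and PTGS2, were above the floor only in SCM, so the filter set their direction. With control shRNA the median was 0.70, a 1.62-fold higher signal, over the 25 targets above the floor in that line. The highest, after CCL20, CSF3, PTGS2, IL1A and IL1B, was CXCL3, a neutrophil-attracting chemokine gene. CXCL3 read 664 in DMEM and 7515 in SCM with PIAS1 shRNA2, 11.3-fold higher, and 1093 and 1400 with control shRNA, 1.28-fold higher. Its relative CXCL2 read 2450 and 17807 with PIAS1 shRNA2, 7.27-fold higher, and 4895 and 3903 with control shRNA, 1.25-fold lower. CXCL1, of the same cluster of genes, read 5113 and 27496 with PIAS1 shRNA2, 5.38-fold higher, and 11422 and 8071 with control shRNA, 1.42-fold lower. For these 3 chemokine genes the PIAS1 shRNA2 line had the lowest of the 4 signals in DMEM and the highest in SCM.

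Each part of this order held for most of the list, but not always in the same genes. For 19 of the 27 targets the highest of the 4 signals lay on the array of PIAS1 shRNA2 cells in SCM, and for 19 the lowest lay on the array of these cells in DMEM. Over all 9294 genes the same arrays held the highest signal for 2385 genes and the lowest for 2273. Signals were ranked as deposited, without the floor, and some of the lowest were under it. CSF3 and PTGS2, for example, were under the floor in DMEM in both lines. Over the 19 targets above the floor on all 4 arrays, the median log2 of the PIAS1 shRNA2 signal over that of control shRNA was -0.69 in DMEM and 0.55 in SCM. The medium ratio was larger with PIAS1 shRNA2 for 15 of these 19, by at least 2-fold for 8, and the median difference was 0.79. The lower DMEM signal and the higher SCM signal thus both enter the difference between the medium ratios. The interleukin-1 genes did not follow, with differences of -0.17 for IL1A and -0.06 for IL1B.

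**Figure D4:**
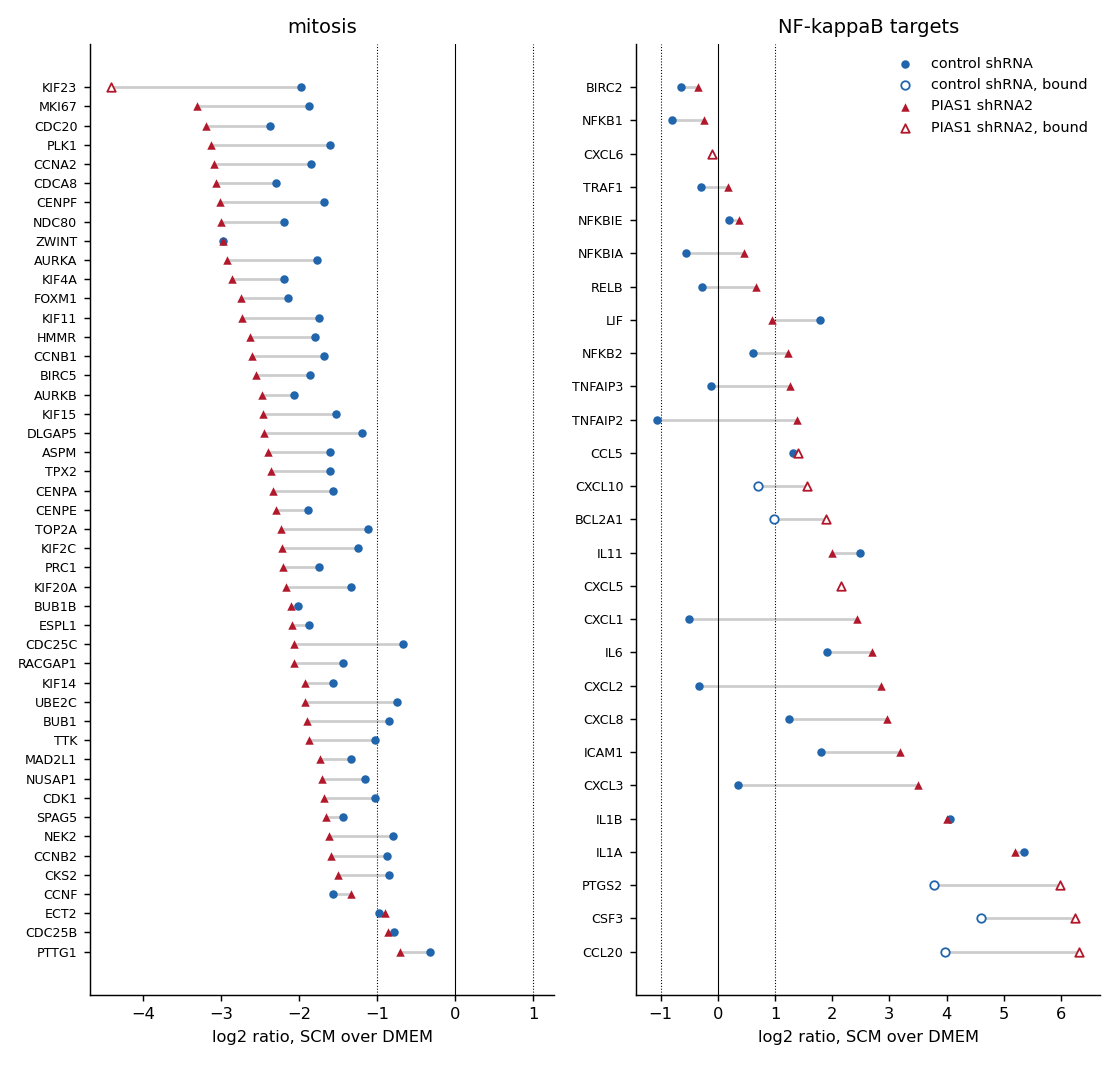
Log2 ratio of SCM over DMEM of each mitotic gene and each NF-kappaB target in control shRNA cells (blue circles) and PIAS1 shRNA2 cells (red triangles), 1 array per condition, where open symbols are bounds and a target with both control signals under the floor has no circle. The triangles lie left of the circles for 44 of 46 mitotic genes, and among the NF-kappaB targets CXCL1, CXCL2 and CXCL3 show wide gaps.

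Interferon-response genes were mostly higher, and MHC class II genes were higher as well. Of 36 interferon-response genes, 11 were at least 2-fold higher (30.6%), none was 2-fold lower, and the median was 0.73. The log2 ratio was above 0 for 28 of them and under 0 for 8. Among the latter were IFIT1, IFIT2, IFIT3 and IFIT5, at -0.74, -0.65, -0.47 and -0.64. With control shRNA 9 of 35 were at least 2-fold higher and 1 lower, with a median of 0.51. ISG20, an antiviral exonuclease gene, read 848 in DMEM and 4745 in SCM with PIAS1 shRNA2, 5.6-fold higher. IFITM1, which blocks viral entry, read 3581 and 16859, 4.71-fold higher, and IFI27 read 7414 and 24520, 3.31-fold higher. IFITM1 has close relatives whose RNA its probes could also read. Of 12 MHC class II genes, 8 were at least 2-fold higher (66.7%), none was lower, and the median was 1.21 with PIAS1 shRNA2 and 1.30 with control shRNA. HLA-DRA, the alpha chain of the HLA-DR receptor for peptide antigens, read 7993 and 24323 with PIAS1 shRNA2 and 18925 and 48008 with control shRNA. CD74, the chaperone of these receptors, read 14186 and 35375 with PIAS1 shRNA2 and 22884 and 54875 with control shRNA. HLA-DPB1 read 2407 and 6817 with PIAS1 shRNA2 and 5570 and 17720 with control shRNA. All 12 class II genes had their lowest signal with PIAS1 shRNA2 in DMEM and their highest with control shRNA in SCM. Some of these lowest signals, such as 18.0 for HLA-DQA1, were under the floor. With control shRNA 11 of the 12 were at least 2-fold higher in SCM. The medium ratio was larger with PIAS1 shRNA2 for 6 genes and smaller for 6. Among the latter was HLA-DRB1, with log2 ratios of 1.14 with PIAS1 shRNA2 and 1.84 with control shRNA. HLA genes are near-identical copies that differ between cell lines, and which copy a probe set reads is uncertain. HLA-DRB4 had a log2 ratio of 1.84 on its bright probe set but 0.00 and -0.22 on dim ones. HLA-DOA had 1.26 on its brightest probe set, a bound, and 0.74, -0.06 and -0.69 on the others.

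Matrix, integrin and protease genes were higher. Of 28 matrix and integrin genes, 16 were at least 2-fold higher (57.1%, against 10.9%) and none was 2-fold lower, with a median of 1.03 with PIAS1 shRNA2 and 1.09 with control shRNA. LOX, which crosslinks collagen, read 3671 in DMEM and 29454 in SCM with PIAS1 shRNA2, 8.02-fold higher, and 2588 and 45874 with control shRNA, 17.7-fold higher. ITGA2, a collagen receptor subunit, read 3145 and 18710 with PIAS1 shRNA2 and 1752 and 15962 with control shRNA. ITGB4 and LAMB3, a laminin receptor subunit and a laminin chain, were 4.34-fold and 4.25-fold higher with PIAS1 shRNA2. In 22 of the 28 genes the highest signal lay on the array of PIAS1 shRNA2 cells in SCM, against 2385 of all 9294 genes. The lowest lay on that of control shRNA cells in DMEM for 24. Over the 27 genes above the floor on all 4 arrays, the median log2 of PIAS1 shRNA2 over control shRNA was 0.49 in DMEM and 0.18 in SCM. The medium ratio was smaller with PIAS1 shRNA2 for 18 of these 27 and larger for 9. Of 15 matrix protease and inhibitor genes, 8 were at least 2-fold higher (53.3%) and ADAMTS1 was at least 2-fold lower, with a median of 1.29. MMP9, a gelatinase, read 615 and 5540 with PIAS1 shRNA2, 9.01-fold higher, and 398 and 2947 with control shRNA. MMP14, a membrane-bound collagenase, read 4279 and 29804 with PIAS1 shRNA2 and 5714 and 32217 with control shRNA. PLAUR, the urokinase receptor, read 7550 and 49219 with PIAS1 shRNA2 and 6260 and 42898 with control shRNA. MMP1, an interstitial collagenase, read 361 and 4348 with PIAS1 shRNA2, 12.1-fold higher, and 4.19 and 110 with control shRNA, where both signals were under the floor.

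Epithelial and stem cell markers changed in both directions. KRT15 and KRT19, keratins of basal and of luminal cells, were 11.5-fold and 3.38-fold higher in SCM with PIAS1 shRNA2. With control shRNA KRT15 was at least 25.3-fold and KRT19 4.47-fold higher. KRT7, KRT8 and KRT18 of simple epithelia were 2.33-fold, 2.2-fold and 2.03-fold lower in SCM with PIAS1 shRNA2. With control shRNA they were 1.54-fold, 1.56-fold and 1.73-fold lower. All 5 keratins above the floor had the lower medium ratio with PIAS1 shRNA2. Among stem cell markers above the floor, ALDH1A3, an aldehyde dehydrogenase gene, read 1195 in DMEM and 13547 in SCM with PIAS1 shRNA2, 11.3-fold higher, and 1364 and 6220 with control shRNA, 4.56-fold higher. CD24 was 3.54-fold higher, on all 6 of its probe sets, and the drug efflux pump gene ABCG2 was 4.55-fold lower, at 1719 and 378. ALDH1A1, KIT, MSI1, PROM1, SOX2 and ALDH1A2 were under the floor in both media. Of the luminal markers, AGR2, a disulfide isomerase of secretory cells, read 984 and 8198 with PIAS1 shRNA2 and 341 and 1123 with control shRNA. TFF1, an estrogen-responsive trefoil gene, read 276 and 2188 with PIAS1 shRNA2 and 233 and 2671 with control shRNA, whereas the luminal factor GATA3 was 2.77-fold lower, at 4765 and 1718. SNAI2, the mesenchymal repressor SLUG, was 2.56-fold lower, at 7320 and 2858, and JUP, the gene of plakoglobin, was 4.21-fold higher, at 1049 and 4420.

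Of 13 BCL2 family genes, which set the threshold of apoptosis, 5 were at least 2-fold higher (38.5%, against 10.9%) and 1 at least 2-fold lower (7.69%, against 10.4%), with a median of 0.01. BIK, a proapoptotic member, read 386 in DMEM and 1069 in SCM with PIAS1 shRNA2, 2.77-fold higher, and 760 and 905 with control shRNA, 1.19-fold higher. BID, another proapoptotic member, was 2.68-fold higher at 3610 and 9689, and the survival gene MCL1 was 2.44-fold higher at 15046 and 36646. The lower gene was BCL2 itself, at 669 and 198 with PIAS1 shRNA2, 3.38-fold lower, and 480 and 313 with control shRNA, 1.53-fold lower. A dimmer probe set of BCL2 went the other way with PIAS1 shRNA2, at 104, under the floor, and 271. Of 14 NRF2 targets, 2 were at least 2-fold higher (14.3%, close to the background of 10.9%). They were the reductase genes AKR1C1 and AKR1C3 at 4.21-fold and 3.46-fold, which are close relatives. None of 7 metallothionein-list genes was 2-fold different. Of 16 WNT ligand and receptor genes 2 were at least 2-fold higher and 2 lower (12.5% each, close to the background of 10.9% and 10.4%). Among them were the coreceptor gene LRP5 at 3.55-fold higher and the receptor gene ROR1 at 3.41-fold lower.

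Genes of interest to the original work were read in the same way. WNT5A, a noncanonical WNT ligand, read 359 in DMEM and 756 in SCM with PIAS1 shRNA2, 2.1-fold higher, and was under the floor with control shRNA in both media. PAEP, the gene of glycodelin, read 55.3 and 924, at least 5.07-fold higher. CCND2, the gene of cyclin D2, and LDOC1 differed little between the media, at 457 and 510 and at 969 and 1303, and were under the floor on both arrays of control shRNA cells. The estrogen receptor gene ESR1 read 206 and 357 with PIAS1 shRNA2 and 216 and 706 with control shRNA, on the brightest of 9 probe sets, of which 6 were under the floor. DNMT1, which maintains DNA methylation at replication forks, read 8227 and 1991, 4.13-fold lower, and 7199 and 1558 with control shRNA, 4.62-fold lower. DNMT3A read 51.4 and 404, at least 2.22-fold higher. WNT1 read 225 and 9.99, near the floor.

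The medium ratios of the 2 lines share no array and could be set side by side. In control shRNA cells 988 genes were at least 2-fold higher (10.7% of 9192) and 984 at least 2-fold lower (10.7%). Over the 8767 genes above the floor in each line, 674 were at least 2-fold higher in both, which is 67.7% of the PIAS1 shRNA2 list and 69.0% of the control shRNA list. At least 2-fold lower in both were 685 genes, or 71.7% and 69.9%. Of the genes called in PIAS1 shRNA2 cells, 97.3% of the higher and 96.9% of the lower had the same sign in control shRNA cells. Across these genes, which are not independent replicates, Pearson's r of the log2 ratios was 0.85 and Spearman's rho 0.82. Over 7685 genes above the floor on all 4 arrays the SD across genes was 0.91 with PIAS1 shRNA2 and 0.90 with control shRNA, and that of the difference was 0.45. Of 564 such genes at least 2-fold higher in both lines, 288 had the larger ratio with PIAS1 shRNA2, and of 636 lower in both, 336 had.

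**Figure D5:**
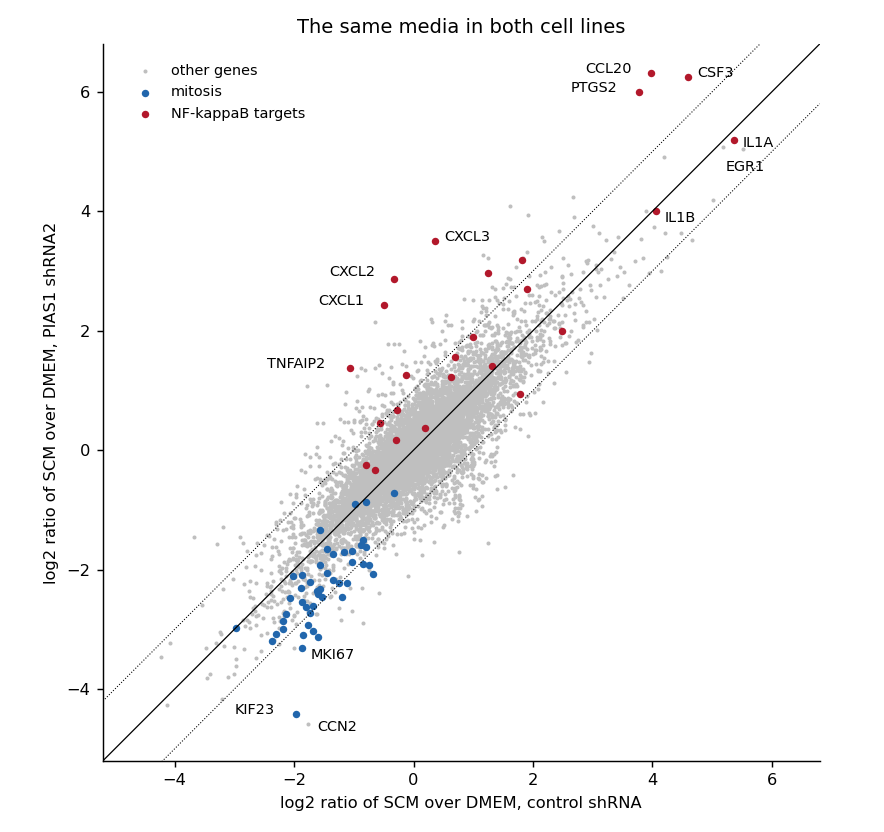
Log2 ratio of SCM over DMEM in control shRNA cells (x axis) and in PIAS1 shRNA2 cells (y axis), 1 point per gene for 8767 genes with signals under the floor raised to it; the solid line marks equal ratios and the dotted lines a 2-fold difference. Most genes lie along the solid line, with mitotic genes (blue) mainly below it and NF-kappaB targets (red) mainly above it.

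The medium ratio was at least 2-fold above that of control shRNA cells for 222 genes (2.53% of 8767) and at least 2-fold below it for 253 (2.89%). With 4 arrays for 4 conditions no degree of freedom is left, so this difference could not be tested for any gene. Among genes above the floor on all 4 arrays, CXCL2, CXCL3 and CXCL1 had the highest differences, 3.19, 3.14 and 2.93 on the log2 scale. C17orf75 and the sugar phosphate transporter gene SLC37A1 followed with 2.86 and 2.80, at dimmer signals. C17orf75 read 304 in DMEM and 641 in SCM with PIAS1 shRNA2 and 876 and 256 with control shRNA. SLC37A1 read 194 and 860 with PIAS1 shRNA2 and 558 and 355 with control shRNA. The lowest differences were those of CCN2, at -2.82, and of 4 genes of lower signal. GPR27, an orphan receptor gene, had -2.10, with 415 and 216 with PIAS1 shRNA2 and 215 and 478 with control shRNA. The dynein gene DYNC2H1 had -2.07, the prostaglandin receptor gene PTGFR -2.05 and GTF3C5, a gene of RNA polymerase III initiation, -1.91. No signal of these 4 genes was above 746. For KIF23 the difference was at most -2.44, since its ratio in PIAS1 shRNA2 cells is a bound.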

How the data were processed

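RNA of MDA-MB231 cells in 4 conditions was measured on 1 Affymetrix array each. The intensity values deposited by the authors are linear and never negative. MAS5 is named in the submitters' notes, with version and settings not given in the sources used here.

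For a gene with several probe sets, the one of highest average log2 intensity stood for it. Probe sets with several genes (1043) or unlisted (2164) were left out, and Entrez identifiers of 19058 of 19070 matched the RefSeq table of GRCh38.p14. Signals under a floor of 182, the highest among the arrays of the 75th percentile of 71 probe sets that read 52 genes typical of other tissues, were raised to it. Ratios were log2 of SCM over DMEM, called at 2-fold, with no test. The steps were tested on simulated data.

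Lists (43, with 811 of 921 genes measured) were counted over genes above the floor on at least 1 of the 2 arrays. A gene that passed through the medium where it is bright had to differ, so these counts do not cover all listed genes. The members and lists were chosen with earlier results of these data known. Genes named are the 12 highest and 12 lowest ratios, the 5 highest and 5 lowest bounds, the 5 highest and 5 lowest differences between the lines, up to 6 members of each list with the largest ratios in size, and the genes the study names. Marker genes under the floor, EGLN1, the array controls and the genes with opposite ratios in the lines were added after their values were seen.

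Promoters were RefSeq windows of 300 bases, the first listed per gene. Motifs were searched on both strands. Python 3.11.15, NumPy 2.4.6, pandas 2.3.3 and matplotlib 3.10.9 were used. As alternatives, 3 other settings of the floor, 2 scalings (to a common median, and by quantiles) and 2 other ways to join probe sets were tried.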

Additional observations from a re-analysis of the deposited data

Results flagged for a closer look

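For 5 genes the ratio of SCM over DMEM was at least 2-fold in one direction in PIAS1 shRNA2 cells and at least 2-fold in the other in control shRNA cells. The differences between the log2 ratios, PIAS1 shRNA2 minus control shRNA, were not tested, as each condition has 1 array. TNFAIP2, a target of NF-kappaB, had a difference of 2.43, with 8377 in DMEM and 21735 in SCM with PIAS1 shRNA2 and 18281 and 8786 with control shRNA, and it had the highest signals of the group. ROBO1, a receptor of SLIT guidance factors, had 2.53, with 359 and 765 against 506 and 187. C17orf75 had 2.86, with 304 and 641 against 876 and 256. The asparaginase-like gene ASRGL1 had -2.81, with 538 and 76.8 against 87.7 and 434. The pseudogene MAGOH2P, whose probes could read its parent gene, had -2.06, with 368 and 136 against 139 and 377. The last 4 genes had far lower signals than TNFAIP2 on every array, and the ratios of ASRGL1 and MAGOH2P are bounds in both lines.

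The comparison left out probe sets that name no gene or several. In PIAS1 shRNA2 cells 1890 of them were above the floor, of which 175 (9.26%) had a signal 2-fold or more higher in SCM and 152 (8.04%) 2-fold or more lower.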

How the results depend on the processing

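The floor set how many genes were called. With the floor at the array median, 668 genes were at least 2-fold higher in SCM with PIAS1 shRNA2 and 635 with control shRNA, and the medium ratio of PIAS1 shRNA2 was at least 2-fold above that of control shRNA for 64 genes and below it for 56. With a floor of 343, the 95th percentile of the other-tissue genes, these differences numbered 123 and 107. With no floor, 1978 genes were higher and 1778 lower with PIAS1 shRNA2, 2216 and 1618 with control shRNA, the differences numbered 1227 and 1634, and the Pearson correlation between the lines was 0.45. Common-median scaling, quantile normalization and the other ways to join probe sets kept each of these counts within 1.5 times. The log2 ratio of HLA-DOA turned to -0.15 when its probe sets were averaged, where that of IL1A was 2.48. The median of the NF-kappaB targets ranged from 1.32, with the floor at the 95th percentile, to 2.56 with no floor, and was 1.59 as the mean of probe sets, while that of mitosis ranged from -2.30 to -2.22. Of the list medians over all alternatives, 274 moved by less than 0.25 and 20 by more. For the ratios of named genes, 1739 kept their direction and their side of 2-fold, 52 no longer reached it, 15 newly reached it and 1 turned. No paired analysis was possible because each group is 1 array, and for the same reason no replicate could be left out. Dim genes are limited by background, bright ones by the probes' range, and all by the number of arrays.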
